A study of Homo sapiens with 45 samples.

Results

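The respiratory chain subunits encoded in the nucleus were followed through palbociclib (PB) treatment of 3 neuroblastoma lines. Members were taken by symbol: a gene belongs if its name begins with NDUFA, NDUFB, NDUFC, NDUFS or NDUFV and a digit, with UQCR, with ATP5, or with COX and a digit from 4 to 8, or if it is SDHA, SDHB, SDHC or SDHD, and if it is protein-coding. This gave 86 of the 29159 genes in the count tables. Of 163 symbols that fit the names, 77 were pseudogenes or antisense and other non-coding genes and were left out. Complex I has 36 members (7 core and 29 accessory subunits), complex II has 4, complex III has 9, complex IV has 18 and complex V has 19. The 9 include UQCRHL, a retrocopy of UQCRH, and the 19 include the inhibitor ATP5IF1. How reads were shared between UQCRH and UQCRHL was not tested. NDUFA4 and its relative NDUFA4L2 are counted with complex IV, where NDUFA4 is now placed. The names leave out NDUFAB1, CYC1 and CYCS, and COX7A1 and the subunits encoded by mitochondrial DNA were not analysed here.

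The respiratory chain passes electrons from NADH (complex I) and succinate (complex II) through ubiquinone to complex III, cytochrome c and complex IV, which reduces oxygen. Complexes I, III and IV pump protons across the inner mitochondrial membrane, and complex V, the ATP synthase, uses their return to make ATP. Complex II is also the succinate dehydrogenase of the TCA cycle, and it is the complex whose subunits are all encoded in the nucleus. Inherited loss of SDHB, SDHC or SDHD predisposes to paraganglioma and phaeochromocytoma, and phaeochromocytoma like neuroblastoma arises in the sympathoadrenal lineage.

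RNA was sequenced from the established lines SH-SY5Y, IMR-32 and SK-N-BE(2)C, all of the adrenergic (ADRN) type, grown without PB (control) or with PB, an inhibitor of the cell-cycle kinases CDK4 and CDK6. Treatment lasted 24 h, or 7 d in SK-N-BE(2)C and 5 d in the other lines. Each of the 9 groups has 5 biological replicates, taken as passages of the same line, and 45 libraries were made in all. The p-values therefore measure the spread between passages. SK-N-BE(2)C carries amplified MYCN, as does IMR-32, whereas SH-SY5Y has mutant ALK. Because controls were harvested alongside the 24 h samples, the longer comparison mixes PB with extra days of culture. The difference of 7 d from 5 d cannot be told apart from the difference between lines. Values listed by line begin with SK-N-BE(2)C, go on to IMR-32 and end with SH-SY5Y.

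Libraries held 13459219 to 25441812 counted reads (median 18494528). Genes were tested by the quasi-likelihood test of edgeR, and a gene counts as called higher or lower where its log2 fold change passed 0.5 in size with an adjusted p (Benjamini-Hochberg) below 0.05. The tests covered 14055, 14293 and 14547 genes with enough counts in the respective lines. Levels are given as CPM, the counts scaled to a fixed library total, which compare libraries for a gene and not genes with each other. Replicates varied by 13.8%, 19.8% and 11.2% (biological coefficient of variation). Replicate 5 of IMR-32 stood 1.66 to 2.48 times as far from its group as the other replicates, and replicate 2 of IMR-32 at 24 h was high for most members. The adrenergic markers HAND2 and GATA3 were abundant in every line (at least 218 CPM in each group mean), whereas TH, which makes catecholamines with DBH, was at 0.349 CPM in SH-SY5Y controls. DBH itself went from 25.5 CPM in IMR-32 controls to 1.5 at 5 d and was called lower. In the same comparison the adrenergic markers TH (14.2 to 74.3 CPM) and CHGA (238 to 563) were called higher. CHGA was called higher at the longer time in the other lines too. Of markers of other cells, PTPRC and CD3E did not exceed 0.04 CPM, GFAP did not exceed 1.15 and CD68 was at 0.396 to 5.35, and their part in the results was not tested.

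By their median the members lay near or slightly above control at 24 h and below it at the longer time in each line, farthest in SK-N-BE(2)C and least in IMR-32. At the longer time 28 of 79 members tested were called lower in the SK-N-BE(2)C line, 3 of 81 in IMR-32 and 14 of 82 in the SH-SY5Y line, and 3, 4 and 3 were called higher. Of all genes tested, 22.3%, 15.5% and 17.3% were called lower and 24.5%, 16.6% and 18.6% higher. The share of members called lower stood above that of all genes in SK-N-BE(2)C (35.4%) and under it in IMR-32 (3.7%). In SH-SY5Y it lay near it (17.1%), but this turned on the libraries kept of the 5 d group, since the 14 called lower became 25 without replicate 5 and 8 without replicate 1. At the adjusted p alone 63, 25 and 48 members were lower and 5, 6 and 4 higher, beside 35.8%, 25.6% and 32.5% of all genes lower and 35.3%, 25.5% and 32.9% higher. The median log2 fold change of the members was −0.41, −0.16 and −0.29, beside 0.01, 0.00 and 0.01 over all genes tested. In each line 68 members lay below 0, and 61 of the 79 tested in every line lay below 0 in all 3. These are relative abundances in bulk RNA: fewer cells of a type and less RNA per cell cannot be told apart.

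**Figure D1:**
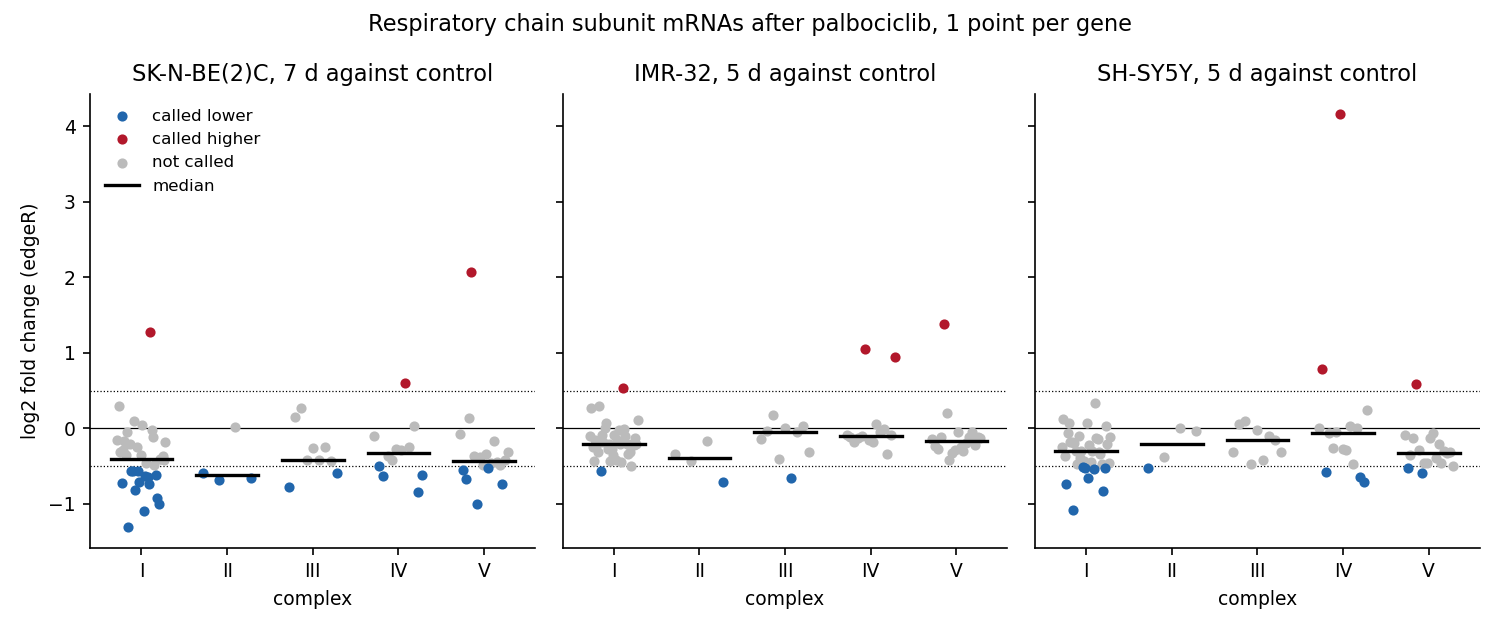
Log2 fold change of each member at the longer PB time against control, by complex and line, with 1 point per gene, the median as a bar and the fold limit of 0.5 as dotted lines. Most points lie below 0 in each line, and a few members, led by ATP5F1E (2.07, 1.38 and 0.59) and by COX6B2 in SH-SY5Y (4.16), lie far above it.

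At 24 h no member was called by edgeR in SK-N-BE(2)C or IMR-32, and in SH-SY5Y 1 was called lower (NDUFA6) and 2 higher (COX4I2 and COX6B2). DESeq2 likewise called 0 members in the former lines. Among all genes 10.6%, 10.5% and 11.0% were called lower and 10.9%, 7.87% and 10.5% higher at 24 h, so few members moved beyond the fold limit while many other genes did. At an unadjusted p under 0.05, 5, 2 and 9 members lay lower and 25, 27 and 14 higher, beside 25.8%, 19.4% and 25.5% of all genes lower and 27.2%, 23.8% and 29.7% higher. The median log2 fold change was 0.06, 0.18 and 0.00 (0.02, 0.06 and 0.04 over all genes). In IMR-32 the median rested on replicate 2: without it the median was 0.05. With the replicate number as a block, or without replicate 5, 2 members were called higher there.

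Between 24 h and the longer time 32 members were called lower and 2 higher in SK-N-BE(2)C, against 14.4% and 17.5% of all genes. In IMR-32, 7 were lower and 2 higher (8.86% and 10.8% of all genes), and in SH-SY5Y 8 were lower and 2 higher (6.23% and 10.5%). At the adjusted p alone 68, 56 and 54 were lower, beside 30.0%, 17.8% and 21.4% of all genes. The medians were −0.47, −0.36 and −0.31, and 70 of 79 members lay below 0 in all 3 lines. The 24 h libraries are shared by this comparison and that of 24 h with control. Without replicate 2 of the 24 h group in IMR-32 its count of 7 dropped to 2 and the median was −0.22, and without replicates 1, 3 or 4 of that group it was 13, 13 and 12. Without replicate 5 of all groups, 10 were lower. It was 12 without replicate 3 and 4 without replicate 4 of the 5 d group. In SH-SY5Y the count of 8 was 4 without replicate 3 of the 24 h group, and 2 or 3 without replicate 1 or 2 of the 5 d group.

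Summed over its members, each complex was lower at the longer time in every line. Complex I stood at 80.2%, 90.9% and 86.5% of its control mean and complex V at 77.3%, 88.2% and 83.4%. Complex II was at 75.8%, 82.7% and 91.8%, complex III at 88.4%, 90.8% and 93.4%, and complex IV at 85.9%, 93.5% and 89.1%. At 24 h the sums were between 97.4% (complex II, SH-SY5Y) and 113.1% (complex IV, IMR-32) of control. The latter rested on replicate 2, without which, in a comparison chosen after seeing the data, complex IV was at 104.1%. These are descriptions with no test, and sums weigh the most abundant members.

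By the sum of complex I the libraries of SK-N-BE(2)C separated cleanly, whereas those of complex II overlapped between control and 24 h. Complex I summed to 3127.2, 3004.7, 3142.1, 3114.9 and 3116.7 CPM in the 5 controls, to 3248.4, 3381.0, 3401.0, 3329.3 and 3347.5 at 24 h, and to 2694.0, 2259.0, 2348.7, 2590.1 and 2541.3 at 7 d. All 24 h libraries lay above and all 7 d libraries below the controls, with replicate 1 the least lowered. In IMR-32 the sums were 2596.3, 2439.0, 2604.9, 2558.1 and 2479.9 CPM in controls, 2525.6, 3315.0, 2540.8, 2526.8 and 2644.2 at 24 h, and 2362.4, 2247.8, 2355.3, 2260.8 and 2296.7 at 5 d. The 5 d libraries all lay below the controls, and replicate 2 at 24 h stood far above every other library of that line.

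In SH-SY5Y complex I summed to 2412.8, 2384.3, 2708.9, 2445.7 and 2393.6 CPM in controls, to 2528.3, 2283.4, 2654.5, 2688.0 and 2517.7 at 24 h, and to 1911.2, 1913.4, 2312.8, 2080.2 and 2467.0 at 5 d. Replicates 1 and 2 at 5 d were the lowest, and replicate 5 lay within the range of the controls. This spread moves the counts of calls: of the 14 members called lower at 5 d, the count became 8 without replicate 1 of that group, 9 without replicate 2 and 25 without replicate 5. With scaling to library totals alone it was 8.

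**Figure D2:**
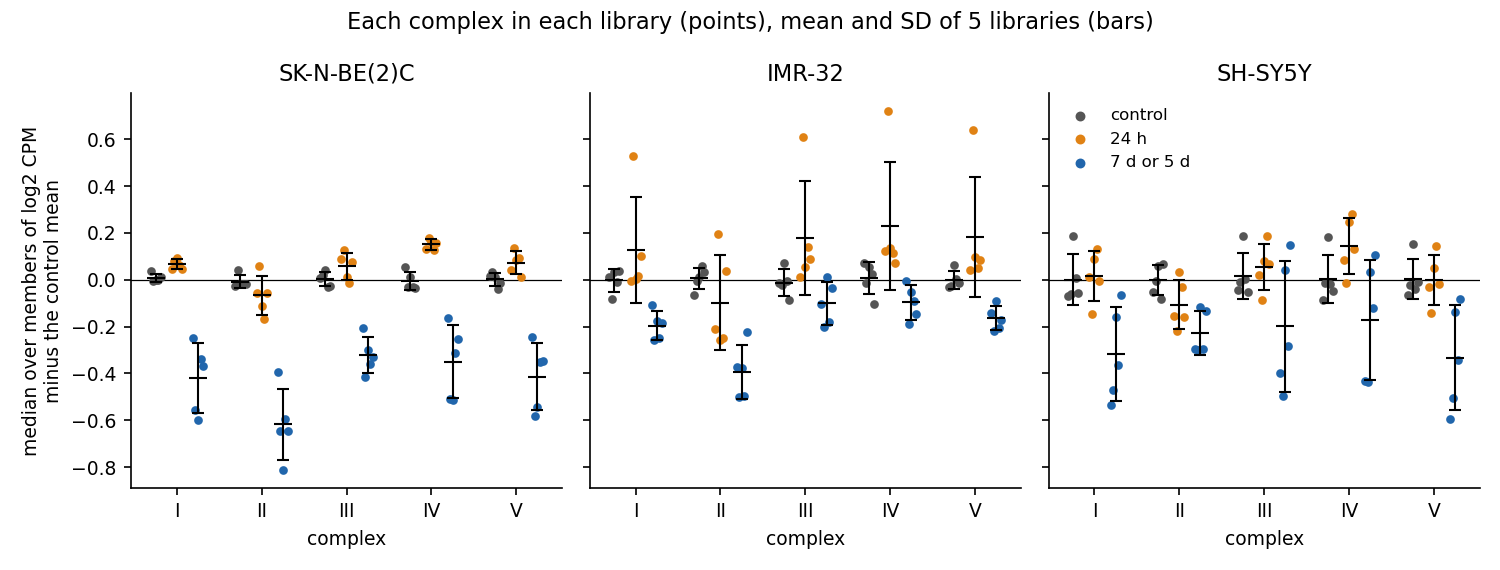
For each complex and library, the median over members of TMM-scaled log2 CPM minus the member's control mean (points; bars are the mean and SD of 5 libraries). In SK-N-BE(2)C all 7 d libraries sit below the controls, in IMR-32 the 24 h library of replicate 2 reaches 0.53 for complex I against at most 0.10 for the others, and in SH-SY5Y the 5 d libraries of complex I spread from −0.53 to −0.06.

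Complex I is the largest of the complexes. At the longer time 14, 1 and 8 of its 36 members were called lower, by line, beside 22.3%, 15.5% and 17.3% of all genes, and 1, 1 and 0 were called higher. The median log2 fold change was −0.41, −0.20 and −0.30. The calls lay almost wholly among the accessory subunits, which surround the core and serve in its assembly and stability: 14, 1 and 7 of 29 were lower, against 0, 0 and 1 of the 7 core subunits, which carry the redox centres. The medians of the core (−0.41, −0.20 and −0.20) and accessory subunits (−0.46, −0.21 and −0.30) stood closer together than these counts, and the difference between the groups was not tested.

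NDUFA6, an accessory subunit of the LYR family at the junction of the matrix and membrane arms, was the only member called lower in all 3 lines at the longer time. It lies at chr22:42481530-42486888 on the minus strand (GRCh37). It stood at 116.6, 120.8, 114.6, 107.2 and 111.9 CPM in SK-N-BE(2)C controls, at 93.2, 92.72, 88.72, 87.38 and 92.69 at 24 h, and at 57.14, 39.84, 40.44, 48.44 and 51.44 at 7 d. The 3 groups did not overlap and stepped down with time. In IMR-32 it was at 52.61, 51.5, 56.83, 53.99 and 62.58 CPM in controls, at 38.72, 51.18, 37.53, 37.83 and 47.79 at 24 h, and at 44.44, 37.11, 37.03, 33.87 and 37.3 at 5 d. Both treated groups lay below the controls there and overlapped each other, and replicate 2 was the highest at 24 h. In SH-SY5Y it was at 25.79, 22.72, 30.24, 24.85 and 24.69 CPM in controls, at 15.61, 14.38, 18.92, 18.26 and 15.55 at 24 h, and at 10.36, 11.38, 14.24, 12.37 and 14.86 at 5 d. Again each treated library lay below each control.

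The log2 fold change of NDUFA6 at the longer time was −1.31 ± 0.09, −0.56 ± 0.11 and −1.09 ± 0.11 (± standard error, n = 5 against 5; edgeR adjusted p 2.14e-09, 7.54e-04 and 1.66e-07). At 24 h it was −0.36, −0.33 and −0.64 (adjusted p 0.00254, 0.0307 and 1.04e-04), past the fold limit in SH-SY5Y. The stretch before its start is shown because NDUFA6 was the member lowered in every line. It is the RefSeq promoter sequence placed on GRCh37 by exact match, at chr22:42486889-42487026 (minus strand), given 5′ to 3′ on the gene's strand up to the base before the annotated gene. None of the motifs searched falls within it, and a YY1 motif begins 26 bases after the RefSeq start.
NDUFA6: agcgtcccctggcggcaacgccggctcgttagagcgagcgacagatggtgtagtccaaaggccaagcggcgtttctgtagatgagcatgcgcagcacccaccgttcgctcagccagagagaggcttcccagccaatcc

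The other accessory subunits called lower in at least 2 lines were NDUFA12, NDUFB2, NDUFB6, NDUFC1 and NDUFS6. NDUFB6, in the membrane arm, had log2 fold changes of −1.10, −0.42 and −0.66, and NDUFS6, which binds zinc in the matrix arm, had −1.01, −0.50 and −0.83. NDUFA12 had −0.73, −0.44 and −0.74, and NDUFB2 −0.57, −0.43 and −0.52. NDUFB2 overlaps ADCK2 on the same strand, which had −1.57, −0.46 and −0.01, and how reads were shared between them was not tested. NDUFC1 had −0.74, −0.45 and −0.53, but it overlaps NAA15 on the opposite strand, which had −1.27, −0.65 and −0.64. The sources used here do not say which strand was counted, so reads of such pairs may not be told apart, and 37 of the 86 members overlap an annotated gene on the opposite strand (NDUFB6 with SMIM27, at no more than 3.27 CPM, among them). Processed copies are a like limit: 33 members outside complex II have 74 pseudogenes in the tables, whose counts came to at most 3.06% of member and copies together (UQCRFS1, SH-SY5Y). Among core subunits NDUFS7, which holds an iron-sulfur cluster next to ubiquinone, was called in SH-SY5Y (−0.52), with −0.41 and −0.20 in the other lines. NDUFS1, the large core subunit of the NADH arm, had −0.03, −0.01 and −0.13.

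NDUFC2, an accessory subunit of the membrane arm, ran the other way. It was at 9.598, 10.62, 13.97, 11.0 and 12.71 CPM in SK-N-BE(2)C controls, at 15.38, 15.17, 17.37, 15.95 and 15.72 at 24 h, and at 21.91, 29.42, 34.09, 30.46 and 28.69 at 7 d, so that each time lay above the last with no overlap. The log2 fold change at the longer time was 1.28, 0.54 and 0.34 (adjusted p 3.3e-08, 0.0044 and 0.0359 by edgeR), called higher in the first 2 lines. NDUFC2 shares its locus with the annotated readthrough gene NDUFC2-KCTD14, so its counts may be split with it. NDUFA10 lay above control without passing the fold limit (0.30, 0.27 and 0.12).

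Complex II had the lowest median of the complexes in the first 2 lines (−0.63 and −0.39, with −0.21 in SH-SY5Y), and 3, 1 and 1 of its 4 members were called lower, beside 22.3%, 15.5% and 17.3% of all genes. The catalytic subunits SDHA and SDHB lay below control in each line, whereas the membrane anchors SDHC and SDHD each had a pattern of their own. SDHA, the flavoprotein that oxidises succinate (chr5:218418-257197, plus strand), had log2 fold changes of −0.59 ± 0.08, −0.34 ± 0.09 and −0.52 ± 0.07 at the longer time, called lower in SK-N-BE(2)C and SH-SY5Y. SDHB, the iron-sulfur subunit that hands electrons on (chr1:17345159-17380527, minus strand), had −0.68, −0.44 and −0.39, called in SK-N-BE(2)C. It was at 49.82, 55.73, 49.85, 51.86 and 54.77 CPM in SK-N-BE(2)C controls, at 47.9, 58.72, 48.98, 46.4 and 51.56 at 24 h, and at 36.75, 34.23, 29.59, 35.62 and 32.27 at 7 d, where no library reached the other groups. The longer-time libraries lay below all controls in IMR-32 and SH-SY5Y as well.

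SDHA was at 273.1, 258.3, 244.4, 250.8 and 243.3 CPM in SK-N-BE(2)C controls, at 263.1, 253.9, 246.6, 236.6 and 248.1 at 24 h, and at 212.6, 163.3, 148.7, 170.4 and 173.4 at 7 d. The 24 h libraries overlapped the controls, with replicate 4 below all of them, and the 7 d libraries lay below both groups, replicate 1 highest. The IMR-32 libraries had it at 133.4, 132.1, 134.0, 143.8 and 113.2 CPM in controls, at 110.3, 122.7, 104.5, 108.4 and 97.21 at 24 h, and at 110.1, 94.61, 105.1, 96.34 and 116.0 at 5 d. The 5 d group overlapped the controls there through replicate 5, the lowest control and the highest 5 d library. Those of SH-SY5Y had it at 109.6, 95.41, 113.7, 103.3 and 91.47 CPM in controls, at 82.83, 70.11, 77.95, 75.59 and 75.03 at 24 h, and at 71.27, 71.7, 75.42, 75.34 and 81.9 at 5 d. In that line SDHA was already below all controls at 24 h (−0.44, adjusted p 2.52e-05 by edgeR) and the 2 treated groups overlapped. Its call at 5 d in SH-SY5Y was lost without replicate 3 of the controls (−0.48) or replicate 1 of the 5 d group (−0.50). Scaling to library totals alone (−0.45) lost it too. SDHA also has the pseudogenes SDHAP1, SDHAP2 and SDHAP3, which took 7.32%, 14.9% and 18.6% of the counts of gene and copies in controls and 11.4%, 25.5% and 24.6% at the longer time. None of the copies was called lower and SDHAP3 was called higher in IMR-32 (0.98), so how reads were shared between SDHA and its copies may bear on its values, which was not tested. Copies of SDHC and SDHD took at most 0.921%.

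SDHD, an anchor that holds ubiquinone and heme with SDHC (chr11:111957548-111990739, plus strand), split the lines. In SK-N-BE(2)C it was at 79.83, 82.89, 82.14, 80.17 and 77.37 CPM in controls and at 53.61, 54.74, 47.25, 55.98 and 51.11 at 7 d. In IMR-32 it was at 17.29, 19.34, 18.67, 20.77 and 21.95 in controls and at 11.17, 11.55, 11.58, 11.29 and 14.73 at 5 d. In SH-SY5Y it was at 44.4, 46.34, 49.63, 42.74 and 47.85 in controls and at 47.42, 51.44, 47.46, 43.27 and 46.99 at 5 d. The former lines showed no overlap with control, and IMR-32 replicate 5 was the highest of its 5 d group. The SH-SY5Y groups lay on top of each other. The log2 fold changes were −0.66 ± 0.05, −0.71 ± 0.14 and −0.03 ± 0.07, and the response of SH-SY5Y differed from both others by the test of the difference itself (−0.65 ± 0.13 and −0.73 ± 0.13, edgeR adjusted p 9.14e-05 and 3.12e-05).

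SDHC (chr1:161284171-161332996, plus strand) had a different time course. In SK-N-BE(2)C it was at 112.8, 118.7, 123.7, 113.7 and 120.7 CPM in controls, at 146.7, 145.5, 154.6, 158.8 and 149.7 at 24 h, and at 120.5, 128.6, 115.8, 126.7 and 122.3 at 7 d. The 24 h libraries lay above all controls in each line, with log2 fold changes of 0.33, 0.24 and 0.20 that were inside the fold limit (edgeR adjusted p 1.16e-05, 0.00672 and 0.00212). At the longer time it was near control in SK-N-BE(2)C (0.01) and SH-SY5Y (0.01) and overlapped it. In IMR-32 it had −0.17 with no overlap (adjusted p 0.0261), again inside the limit.

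The stretches before SDHA and SDHB are shown because these catalytic subunits were both below control in each line, and capitals mark a motif. Before SDHA, at chr5:218269-218412 (plus strand), the capitals are 3 copies of the NRF1 motif, which begin 166, 117 and 68 bases before the RefSeq start, and another begins 19 bases before it, past the end of the stretch. Before SDHB, at chr1:17380528-17380777 (minus strand), the capitals are an ETS motif that begins 128 bases before the start, and a YY1 motif begins 11 bases after it, past the end of the stretch. The RefSeq promoter of SDHD holds 1 NRF1 and 1 ETS motif.
SDHA: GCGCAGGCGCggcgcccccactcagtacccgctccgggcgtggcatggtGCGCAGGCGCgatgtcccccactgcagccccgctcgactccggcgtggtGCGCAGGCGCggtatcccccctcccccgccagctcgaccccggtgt
SDHB: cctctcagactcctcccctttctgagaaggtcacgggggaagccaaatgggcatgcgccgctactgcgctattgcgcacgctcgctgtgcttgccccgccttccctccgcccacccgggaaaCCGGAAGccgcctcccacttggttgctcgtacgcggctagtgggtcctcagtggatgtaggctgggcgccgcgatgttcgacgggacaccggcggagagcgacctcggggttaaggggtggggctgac

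Complex III, which passes electrons from ubiquinol to cytochrome c, had 2, 1 and 0 of 9 members called lower and 0 higher at the longer time, no larger a share than the 22.3%, 15.5% and 17.3% of all genes called lower, with medians of −0.42, −0.05 and −0.16. As replicates were left out, the IMR-32 median moved between −0.071 and −0.009 and that of SH-SY5Y between −0.291 and −0.089. UQCR10 and UQCRQ, small subunits, were called in SK-N-BE(2)C (−0.78 and −0.60), and UQCRFS1, the Rieske iron-sulfur protein, in IMR-32 (−0.66, with −0.42 in each other line). UQCRB, a small subunit near the ubiquinone site, lay above control (0.27, 0.18 and 0.10) without being called. UQCRC1, a core protein, shown for the highest control mean in this complex when the lines are averaged (chr3:48636435-48648409, minus strand), had log2 fold changes of −0.42 ± 0.08, −0.41 ± 0.10 and −0.47 ± 0.06. Each adjusted p was under 0.05 (1.31e-04, 0.00388 and 2.25e-06 by edgeR) and each change inside the fold limit.

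UQCRC1 was at 195.6, 186.1, 225.9, 231.7 and 230.0 CPM in SK-N-BE(2)C controls, at 182.6, 189.7, 221.2, 226.0 and 227.3 at 24 h, and at 165.0, 147.6, 166.2, 169.5 and 174.8 at 7 d. The IMR-32 libraries had it at 275.0, 249.4, 254.9, 265.5 and 215.3 in controls, at 225.2, 277.0, 205.3, 223.1 and 193.7 at 24 h, and at 214.2, 175.0, 191.0, 188.1 and 187.5 at 5 d. Those of SH-SY5Y had it at 177.8, 175.7, 197.0, 175.1 and 172.8 in controls, at 150.2, 136.4, 150.9, 148.2 and 144.6 at 24 h, and at 132.6, 128.2, 151.2, 125.2 and 143.7 at 5 d. No longer-time library reached the lowest control of its line, although in IMR-32 replicate 1 at 5 d came close to control replicate 5. In SH-SY5Y the 24 h libraries were already below all controls. Replicates 1 and 2 of SK-N-BE(2)C were lower than replicates 3 to 5 in controls and at 24 h alike.

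Complex IV, cytochrome c oxidase, had 4 of 12, 0 of 14 and 3 of 15 tested members called lower and 1, 2 and 2 called higher. Of all genes, 22.3%, 15.5% and 17.3% were lower and 24.5%, 16.6% and 18.6% higher, so that the 3 of 15 in SH-SY5Y lay near the share of all genes. COX6A2, COX7B2 and COX8C, forms of muscle or testis, were under the count filter in every line, as was ATP5MGL of complex V. The medians were −0.33, −0.10 and −0.07, and as replicates were left out the first moved between −0.397 and −0.216 and the last between −0.238 and −0.046. COX8A, the common form of the smallest subunit, was called lower in SK-N-BE(2)C and SH-SY5Y (−0.84, −0.35 and −0.64). COX5A and NDUFA4 were called lower in the same lines, with −0.50, −0.12 and −0.58 and with −0.61, −0.09 and −0.71. COX5B was called in SK-N-BE(2)C (−0.63, −0.18 and −0.07). COX7A2L, which joins complexes III and IV in supercomplexes, was higher in SK-N-BE(2)C (0.60, 0.05 and 0.04). The common forms COX6A1, COX6B1, COX7A2 and COX7B lay between −0.48 (COX7B, SH-SY5Y) and −0.04 (COX6B1, SH-SY5Y), none of them called.

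COX4I1, the common form of a large regulatory subunit, shown for the highest control mean in complex IV when the lines are averaged (chr16:85832239-85840674, plus strand), was among the least moved. It was at 351.6, 323.5, 332.2, 353.1 and 329.2 CPM in SK-N-BE(2)C controls, at 381.2, 363.8, 385.1, 375.7 and 392.9 at 24 h, and at 345.4, 320.5, 319.7, 320.5 and 313.4 at 7 d. In IMR-32 it was at 121.5, 98.38, 106.2, 117.4 and 98.84 in controls, at 124.3, 161.0, 117.9, 120.9 and 115.2 at 24 h, and at 109.8, 93.08, 108.4, 104.6 and 96.56 at 5 d. In SH-SY5Y it was at 222.9, 234.5, 266.0, 231.2 and 218.9 in controls, at 263.0, 235.4, 281.4, 272.4 and 273.0 at 24 h, and at 232.6, 221.9, 264.1, 228.8 and 280.6 at 5 d. The longer-time groups overlapped the controls in each line (log2 fold change −0.10, −0.09 and −0.00). At 24 h the libraries of SK-N-BE(2)C all lay above the controls (0.14), inside the fold limit.

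The isoforms of restricted expression stood apart. COX6B2, known from testis, was nearly absent from SK-N-BE(2)C (2 counts over the 15 libraries). The IMR-32 libraries had it at 12.38, 8.917, 6.859, 13.83 and 3.505 CPM in controls, at 17.99, 8.914, 8.726, 18.89 and 11.15 at 24 h, and at 16.0, 19.67, 19.66, 22.63 and 17.08 at 5 d. Those of SH-SY5Y had it at 0.2955, 0.4208, 0.2085, 0.3339 and 0.3701 CPM in controls, at 0.6527, 0.9316, 0.4746, 0.6375 and 0.9425 at 24 h, and at 10.86, 5.858, 3.331, 8.228 and 2.899 at 5 d. The 5 d libraries lay above every control in both lines, and in SH-SY5Y above every 24 h library. The log2 fold change at 5 d was 1.05 ± 0.30 in IMR-32 and 4.16 ± 0.38 in SH-SY5Y (edgeR adjusted p 0.00915 and 3.81e-08). In SH-SY5Y COX6B2 met the count filter only with its 5 d libraries, where it was high. Its fold changes and p-values in that line are therefore descriptive. Its call at 24 h in SH-SY5Y (1.14, adjusted p 0.0491) rested on 33 control and 67 treated counts and was lost under 18 of 25 alternatives, among them 9 that leave out 1 control or 24 h library.

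COX4I2, the form of subunit 4 known from lung and oxygen-sensing cells, had enough counts for the test within a line in SH-SY5Y only. It was at 1.435, 2.051, 1.616, 3.768 and 1.798 CPM in controls, at 4.747, 4.484, 3.975, 8.014 and 5.131 at 24 h, and at 2.631, 3.236, 3.814, 5.541 and 4.168 at 5 d. Replicate 4 was the highest in each group, and every 24 h library lay above every control, whereas the 5 d group overlapped the controls. The log2 fold change was 1.30 ± 0.27 at 24 h and 0.79 ± 0.28 at 5 d (edgeR adjusted p 6.82e-04 and 0.0181), the latter not called without control replicate 1 (0.66) or 5 d replicate 4 (0.63). NDUFA4L2, the hypoxia-linked relative of NDUFA4, was called higher in IMR-32 at 5 d (0.94, from 0.975 to 1.88 CPM). It overlaps SHMT2 on the opposite strand, which had −0.72 there.

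Complex V, the ATP synthase, had 5, 0 and 2 of 18 tested members called lower and 1 called higher in each line, beside 22.3%, 15.5% and 17.3% of all genes called lower, with medians of −0.44, −0.17 and −0.33. Of the catalytic F1 part, ATP5F1B, the beta subunit that makes ATP, was called lower in SK-N-BE(2)C and SH-SY5Y (−0.55, −0.23 and −0.53), while ATP5F1A, the alpha subunit, had −0.07, −0.14 and −0.08. The SK-N-BE(2)C call of ATP5F1B was lost without replicate number 2 (−0.50, at the limit). The SH-SY5Y call was lost without replicate 1 (−0.48) or 2 (−0.50, at the limit) of the 5 d group. Scaling to library totals alone (−0.46) lost the SH-SY5Y call too. ATP5F1C, the central stalk, and ATP5PD of the peripheral stalk were called in SK-N-BE(2)C (−0.68 and −0.74), as was ATP5ME of the membrane part (−0.52). ATP5IF1, the inhibitor that blocks ATP hydrolysis, had −0.36, 0.20 and −0.29.

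The c ring, the rotor in the membrane, is made by ATP5MC1, ATP5MC2 and ATP5MC3, whose mature proteins are identical. ATP5MC1 (chr17:46970127-46973233, plus strand) was at 75.33, 79.34, 78.85, 78.53 and 80.89 CPM in SK-N-BE(2)C controls, at 95.9, 98.58, 96.38, 97.14 and 105.0 at 24 h, and at 46.03, 31.8, 32.83, 49.17 and 42.85 at 7 d. All 24 h libraries were above and all 7 d libraries below the controls. At the longer time ATP5MC1 had −0.999 ± 0.10, −0.42 ± 0.11 and −0.60 ± 0.12, called in SK-N-BE(2)C and SH-SY5Y. ATP5MC3 had −0.49, −0.28 and −0.46 and ATP5MC2 had −0.38, −0.33 and −0.46, none of them called. Against 24 h, ATP5MC2 was the only member called lower in all 3 lines (−0.60, −0.73 and −0.54). In SH-SY5Y that call was lost without 24 h replicate 3 (−0.50, at the limit) or 5 d replicate 1 (−0.44) or 2 (−0.45). It was also lost without replicate number 1 (−0.49) or 4 (−0.50) of all groups, and with library totals alone (−0.49).

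ATP5F1E, the epsilon subunit at the foot of the central stalk (chr20:57600530-57607400, minus strand), was the only member called higher in all 3 lines. It was at 2.107, 3.291, 3.294, 2.08 and 2.541 CPM in SK-N-BE(2)C controls, at 3.097, 3.498, 4.222, 3.736 and 3.25 at 24 h, and at 8.335, 12.2, 13.96, 12.65 and 10.96 at 7 d. In IMR-32 it was at 6.101, 5.911, 7.294, 4.973 and 7.183 in controls, at 7.431, 9.215, 10.91, 7.055 and 10.08 at 24 h, and at 10.59, 14.39, 16.74, 12.17 and 28.68 at 5 d. In SH-SY5Y it was at 4.516, 2.893, 3.18, 2.385 and 3.067 in controls, at 2.611, 3.203, 3.263, 2.96 and 2.775 at 24 h, and at 6.494, 5.691, 4.925, 2.743 and 5.617 at 5 d. The longer-time libraries stood clear of the controls in the first 2 lines, with IMR-32 replicate 5 the highest, and in SH-SY5Y all but replicate 4 did.

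The log2 fold change of ATP5F1E was 2.07 ± 0.16, 1.38 ± 0.24 and 0.59 ± 0.20 (edgeR adjusted p 1.26e-08, 2.19e-04 and 0.0137). The SH-SY5Y call was lost without replicate 1 of the 5 d group (0.49), and without replicate number 2 (0.49) or 5 (0.53) of all groups. RefSeq also lists a readthrough gene of SLMO2 and ATP5F1E over this locus, and which reads went to either was not tested. TUBB1 on the opposite strand did not exceed 0.248 CPM. The stretches before ATP5MC1, at chr17:46969899-46970126 (plus strand), and ATP5F1E, at chr20:57607401-57607640 (minus strand), are shown because they belong to the most lowered and the most raised members of complex V in SK-N-BE(2)C. Neither holds a searched motif, so both are in lower case, and that of ATP5MC1 is followed by an E-box 5 bases after the RefSeq start.
ATP5MC1: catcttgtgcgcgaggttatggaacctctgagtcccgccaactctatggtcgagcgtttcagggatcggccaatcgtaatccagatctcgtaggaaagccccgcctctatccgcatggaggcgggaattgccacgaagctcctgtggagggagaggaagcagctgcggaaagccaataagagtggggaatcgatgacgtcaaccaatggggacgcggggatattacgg
ATP5F1E: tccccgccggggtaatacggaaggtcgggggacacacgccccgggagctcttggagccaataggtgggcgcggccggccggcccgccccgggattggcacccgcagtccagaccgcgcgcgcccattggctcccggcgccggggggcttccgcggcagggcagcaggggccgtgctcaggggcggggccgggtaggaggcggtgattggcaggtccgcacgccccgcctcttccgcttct

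**Figure D3:**
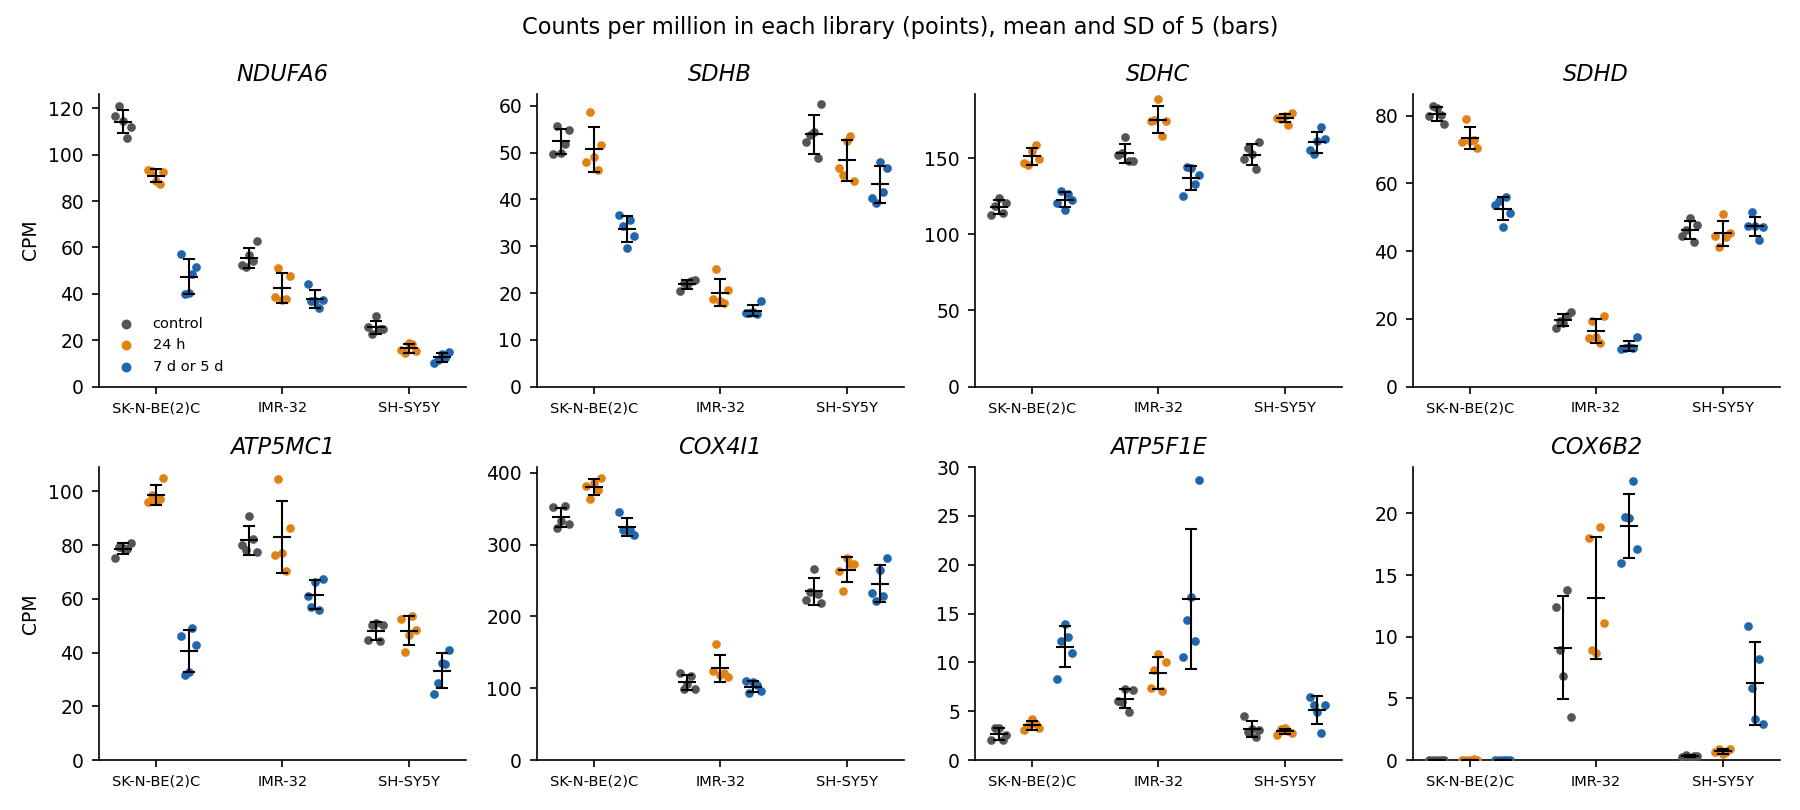
CPM of 8 members in each library (points) with the mean and SD of 5 libraries, by line and time on axes that start at 0. NDUFA6 steps down in all 3 lines, SDHC peaks at 24 h, SDHD is lowered in 2 lines and level in SH-SY5Y, and ATP5F1E and COX6B2 are raised at the longer time where they are expressed.

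Responses at 24 h did not differ between lines for any member by the test of the difference in edgeR, with 0 calls in each pair of lines, against 4.49% (SK-N-BE(2)C and IMR-32), 2.04% (SK-N-BE(2)C and SH-SY5Y) and 3.07% (IMR-32 and SH-SY5Y) of 16282 genes. At an unadjusted p under 0.05, 6, 2 and 7 members differed, beside 20.2%, 15.8% and 16.8% of all genes. At the longer time 11, 5 and 3 of 82 members differed, against 23.9%, 21.2% and 20.8% of all genes, and at the adjusted p alone 27, 17 and 10 differed, beside 34.5%, 31.6% and 30.6%. Whether members differ from other genes in this was not tested. Between SK-N-BE(2)C and IMR-32 the members lower in the former were NDUFA6 (−0.72 ± 0.15), NDUFB6 (−0.66), UQCR10 (−0.61), NDUFS5 (−0.58), ATP5MC1 (−0.55), NDUFA9 (−0.55), ATP5IF1 (−0.53) and NDUFB10 (−0.52). Those higher in the former were NDUFC2 (0.77), COX7A2L (0.57) and COX4I2, the last from 14 counts in control to 48 in SK-N-BE(2)C and from 10 to 3 in IMR-32. COX4I2 was under the count filter of both these lines and entered the fit over all libraries through SH-SY5Y, so its difference rests on too few counts to be read, and 10 members differed without it. ATP5F1E responded more in SK-N-BE(2)C than in SH-SY5Y (difference 1.45 ± 0.31, edgeR adjusted p 3.11e-04), and COX6B2 less in IMR-32 than in SH-SY5Y (−3.18 ± 0.49, adjusted p 4.57e-06).

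The members kept a like order between lines. Across the 79 members tested in both, log2 fold changes at the longer time correlated between SK-N-BE(2)C and IMR-32 with Pearson's r of 0.83 and Spearman's rho of 0.69. The values were 0.79 and 0.71 between SK-N-BE(2)C and SH-SY5Y (79 members), and 0.66 and 0.62 between IMR-32 and SH-SY5Y (81 members). These are correlations across genes, which are not independent replicates and share the processing and their abundance, and Pearson's r leans on the few raised members.

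**Figure D4:**
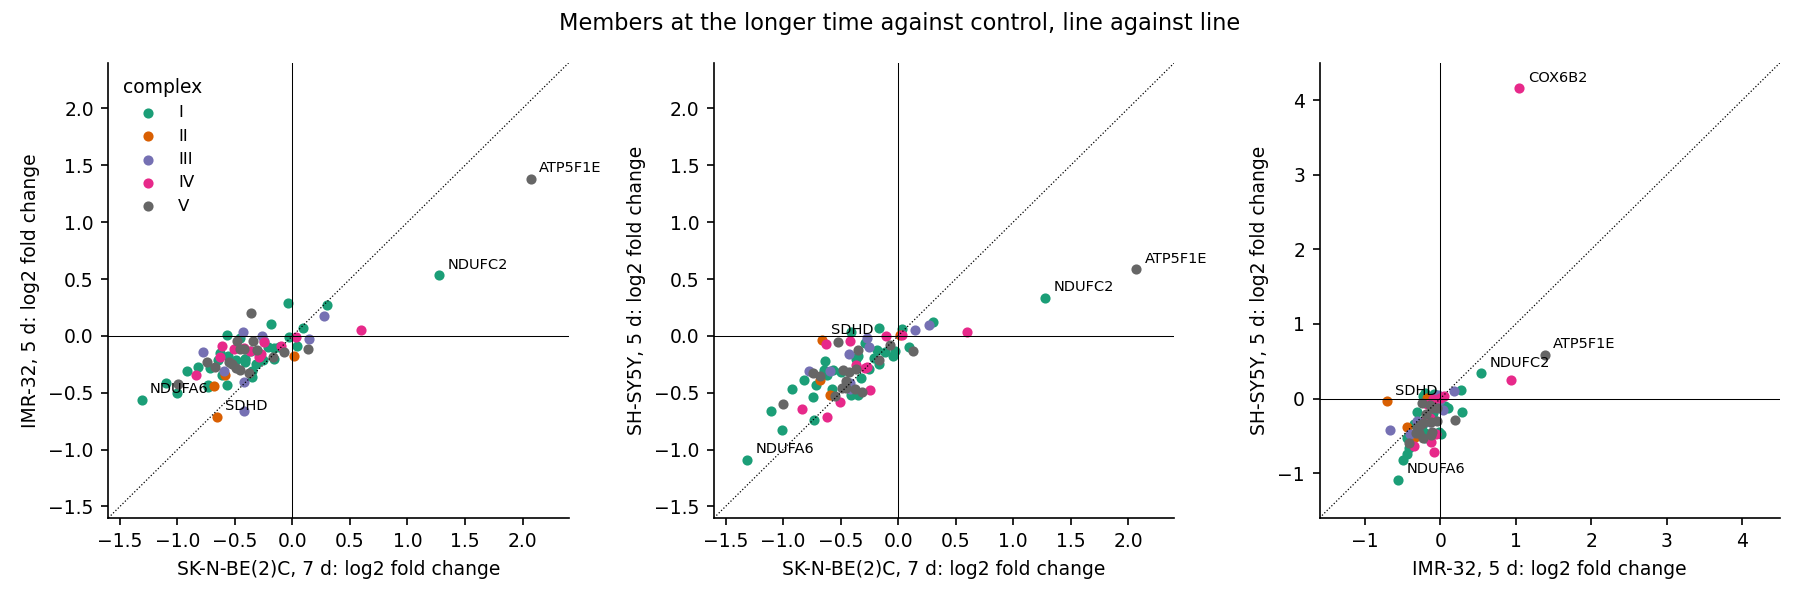
Log2 fold change at the longer time of each member in pairs of lines, coloured by complex, with the line of equality dotted. Most points lie in the lower left, nearer to 0 for IMR-32 than for SK-N-BE(2)C, NDUFA6 lies farthest left in both panels with SK-N-BE(2)C, and SDHD leaves the others in the panels with SH-SY5Y.

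Genes that serve the chain without belonging to it were read from lists of known factors, and their counts stand beside 22.3%, 15.5% and 17.3% of all genes called lower at the longer time. CYC1, the cytochrome of complex III, had −0.77, −0.50 and −0.36 at the longer time, called lower in the first 2 lines. CYCS, cytochrome c, had −0.68, −0.01 and −0.64, called lower in SK-N-BE(2)C and SH-SY5Y. NDUFAB1, the acyl carrier protein of complex I, had −0.48, −0.24 and −0.36 and was not called. Assembly factors of complex I were called lower for 8, 1 and 2 of 18 (NDUFAF3 in the first 2 lines, ACAD9 and NDUFAF4 in SK-N-BE(2)C and SH-SY5Y), and DMAC1 was higher in IMR-32. Those of complex II were lower for 1, 1 and 0 of 4, those of complex III for 2, 1 and 3 of 6, those of complex IV for 9, 0 and 5 of 23 and those of complex V for 1, 0 and 2 of 5. COA5 and COX14 were higher in SH-SY5Y and FMC1 in IMR-32.

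Among regulators of mitochondrial biogenesis the transcription factor NRF1 and GABPB1, a subunit of the ETS factor GABP, were called lower in every line already at 24 h. NRF1 went from 25.4 to 10.1 CPM at 24 h and 13.2 at 7 d in SK-N-BE(2)C, from 27.6 to 15.9 and 17.8 in IMR-32, and from 31.6 to 14.1 and 17.4 in SH-SY5Y (group means). Its log2 fold change was −1.36, −0.75 and −1.17 at 24 h, then −0.99, −0.65 and −0.93. GABPB1 had −0.75, −0.88 and −0.83 at 24 h and −1.18, −0.88 and −1.16 later. TFAM, which packages and transcribes mitochondrial DNA, was called lower in every line at the longer time (−0.93, −0.59 and −0.70). In all, 2, 2 and 3 regulators were lower and 0, 2 and 0 higher at 24 h, when 10.6%, 10.5% and 11.0% of all genes were called lower and 10.9%, 7.87% and 10.5% higher. At the longer time 6, 3 and 6 were lower and 1, 1 and 0 higher, of 14, 13 and 13 tested. The part of these factors in the subunit levels was not tested.

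Of the TCA cycle enzymes, 5 of 14, 2 of 13 and 2 of 14 were called lower at the longer time and 0 higher. In IMR-32 and SH-SY5Y these shares are no larger than those of all genes (15.5% and 17.3%). FH, which hydrates the fumarate that complex II makes, had −1.22, −0.72 and −0.71, and IDH2, the mitochondrial NADP isocitrate dehydrogenase, had −1.26, −0.50 and −1.73, both called in every line.

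Motifs of known regulators were counted in RefSeq promoters of 300 bases (250 before and 50 after the start), which were at hand for 69 of the 86 members and 27305 genes in all. Both strands were searched for NRF1 (GCGC and TGCGC with any 1 base between them), ETS (CCGGAAG), YY1 (AAGATGGCG), E2F (TTTCCCGC) and the E-box (CACGTG). The NRF1 motif was in 17 members (24.6%, against 6.28% of all promoters), ETS in 20 (29.0% against 10.7%) and YY1 in 8 (11.6% against 1.85%). E2F was in 3 (4.35% against 1.66%) and the E-box in 7 (10.1% against 7.43%). The median GC content was 61.0% for members and 58.3% for all. By complex the NRF1 motif was in 6 of 31, 2 of 3, 4 of 7, 1 of 14 and 4 of 14 promoters of complexes I to V. Among members called lower at the longer time in 2 or 3 lines it was in 3 of 11 and ETS in 2 of 11, and among those called lower in no line NRF1 was in 6 of 39 and ETS in 12 of 39. The 27305 promoters include those of genes with too few counts to be tested in these lines, and members were not compared with tested genes alone. A motif match is a description of letters, and binding was not measured here.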

How the data were processed

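RNA-seq libraries were poly(A)-selected, directional and paired-end. The authors trimmed reads (Trim Galore 0.6.4), aligned them with STAR (2.6.1d in the submitters' processing notes) and deposited raw counts per gene in 1 table per line. The sources used here do not say whether counting used strand. Their deposited CPM values and DESeq2 (1.32.0) comparisons, which hold log2 fold changes and p-values, were not used.

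Counts were tested in R 4.3.3 with edgeR 4.0.16 (TMM scaling, filterByExpr with a minimum count of 10, a minimum total of 15 and a share of 0.7, robust quasi-likelihood test), with the 15 libraries of a line in 1 fit of 3 group means and Benjamini-Hochberg adjustment over all genes tested. A call needed a log2 fold change over 0.5 in size with an adjusted p below 0.05. Standard errors were derived from the fold change and its F statistic. Differences between lines came from 1 fit over all 45 libraries. The step was tested on simulated data before use. Alternatives were DESeq2 1.42.0, RLE scaling, library totals only, no filter, adjusted p alone, a replicate block and leaving out replicates.

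Members, gene lists and tests were chosen with earlier results of these data known. Named by rule were SDHA to SDHD, isoform families, members called in all 3 lines, those called in at least 2 lines at 24 h and the member of highest mean control CPM over lines per complex. Other members, and genes of the surrounding lists, were named after their values were seen. Deviations of same-numbered replicates from their group means all correlated above 0.1 in IMR-32 (lowest 0.114) and SH-SY5Y (0.109). In SK-N-BE(2)C they did so between control and 24 h (0.243). With 7 d the correlations were positive but the lowest were 0.0966 and 0.0482. The main tests did not use this pairing in any line. It entered only through the replicate block, which was run as an alternative. The 13 genes of mitochondrial DNA were not analysed here. Gene positions are from GENCODE on GRCh37, and promoter sequences are from RefSeq (GRCh38.p14 table), placed on GRCh37 by exact match and printed without annotated UTR or coding bases.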

Additional observations from a re-analysis of the deposited data

Results flagged for a closer look

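Responses at the longer time differed between lines, by the test of the difference in edgeR, for these members. Between SK-N-BE(2)C and IMR-32 the differences in log2 fold change were −0.722 for NDUFA6, −0.658 for NDUFB6, −0.606 for UQCR10, −0.576 for NDUFS5, −0.55 for ATP5MC1, −0.549 for NDUFA9, −0.533 for ATP5IF1 and −0.523 for NDUFB10, and 0.572 for COX7A2L, 0.766 for NDUFC2 and 3.138 for COX4I2, which was under the count filter in both of these lines (10 to 3 counts in IMR-32) and cannot be read. Between SK-N-BE(2)C and SH-SY5Y they were −0.654 for SDHD and −0.589 for COX5B, and 0.53 for COX7A2L, 0.911 for NDUFC2 and 1.449 for ATP5F1E. Between IMR-32 and SH-SY5Y they were −3.175 for COX6B2, −0.734 for SDHD and 0.567 for NDUFA4.

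Some libraries lay far from the other replicates of their group, by Dixon's test, which chance meets in about 1 of 20 groups. This held for 11 of 45 summed complexes and 9 of 97 groups of named members. Replicate 2 of IMR-32 at 24 h was highest for complexes I (3315.0 CPM), III (1408.1), IV (1909.1) and V (4299.0), for COX4I1 (161.0) and for NDUFC2 (19.88). Control replicate 3 of SH-SY5Y was highest for complexes I (2708.9), III (1013.9) and IV (1596.9) and for UQCRC1 (197.0). In SK-N-BE(2)C, complex I was lowest in control replicate 2 (3004.7), complex III was lowest in 24 h replicate 1 (1168.7), and complex V (3809.2) and SDHD (78.85) were highest in 24 h replicate 2. COX4I1 was highest in 7 d replicate 1 (345.4). Replicate 5 of IMR-32 was lowest for complex V in control (2966.2) and highest for SDHB (18.2) and SDHD (14.73) at 5 d. COX4I2 in SH-SY5Y was highest in replicate 4 in control (3.768) and at 24 h (8.014).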

How the results depend on the processing

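No value changed sign while called. At the adjusted p alone, members lower and higher at 24 h numbered 5 and 23 in SK-N-BE(2)C, with 1 and 18 for IMR-32 and 5 and 9 for SH-SY5Y. They numbered 63 and 5, 25 and 6, and 48 and 4 at the longer time, and 68 and 3, 56 and 2, and 54 and 2 against 24 h. In SK-N-BE(2)C at 7 d, 5 were higher by DESeq2 and 5 with no filter. In IMR-32 at 24 h, 2 were higher with the replicate block. The call of SDHD in IMR-32 at 5 d against 24 h (−0.501, at the limit) was lost with the block (−0.49). It was also lost by DESeq2, with RLE scaling, with library totals and under several of the settings that leave out replicates. Within lines the block moved the other counts of members by less than 1.5 times. Between lines it left 0 members called at 24 h while all genes called went from 731, 332 and 500 to 1121, 670 and 926 (SK-N-BE(2)C with IMR-32, SK-N-BE(2)C with SH-SY5Y, IMR-32 with SH-SY5Y), and members higher in IMR-32 than in SH-SY5Y at the longer time went from 1 to 2. In IMR-32 at 5 d against 24 h, 5 were lower with the block, 5 by DESeq2, 4 with RLE scaling, 3 with library totals and 11 with no filter, which left 1 higher. In SH-SY5Y 1 was higher at 24 h with RLE scaling, with library totals and with no filter, and with library totals 8 were lower at 5 d and 5 against 24 h. The cause was not tested.

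With replicates left out, counts in SK-N-BE(2)C were 0 to 1 higher at 24 h, 25 to 34 lower and 3 to 4 higher at 7 d, and 30 to 46 lower and 2 to 3 higher against 24 h. In IMR-32 they were 0 to 2 higher at 24 h, 3 to 5 lower and 3 to 4 higher at 5 d, and 2 to 17 lower and 1 to 2 higher against 24 h. In SH-SY5Y they were 1 lower and 1 to 2 higher at 24 h, 8 to 26 lower and 1 to 3 higher at 5 d, and 2 to 16 lower and 2 higher against 24 h. The 3 lower in IMR-32 at 5 d became 5 without control replicate 4, and without replicate number 5, 3 were lower and 4 higher. Of 47 calls of named members, 35 held under all 25 alternatives. The median over all members at the longer time stayed between −0.457 and −0.372, −0.188 and −0.148, and −0.366 and −0.225. Depth limits COX6B2, COX4I2 and NDUFA4L2, which rest on few counts.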
